A study of Mus musculus with 19 samples.

Results

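Plppr1 and 7 relatives, Plppr2, Plppr3, Plppr4, Plppr5, Plpp1, Plpp2 and Plpp3, were followed in kidneys of hypertensive and normotensive mice. These 8 genes are 8 of the 40413 genes in the deposited table. Plppr1 was chosen because its counts were higher in BPH/2J than in BPN/3J kidneys in both treatment arms, so its strain difference is given as a description without a test. The other 7 genes were chosen by family name. All 8 were found in the table, and 7 passed the filter on low counts. Plppr5 did not pass.

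Plpp1, Plpp2 and Plpp3 encode lipid phosphate phosphatases, membrane enzymes whose active site faces the outside of the cell or the lumen of an organelle. They remove the phosphate from lysophosphatidic acid, sphingosine 1-phosphate, phosphatidate and ceramide 1-phosphate, and so end receptor signals or supply diacylglycerol. The Plppr genes encode related membrane proteins that lack residues needed for catalysis and are known mainly from neurons, where Plppr1 promotes the outgrowth of filopodia and Plppr4 acts at excitatory synapses.

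Polyadenylated RNA from the kidneys of 19 adult mice was sequenced, 1 library per mouse. The mice were BPN/3J, an inbred strain of normal blood pressure (4 given vehicle and 5 given Cmpd17b), and BPH/2J, an inbred strain selected for high blood pressure (5 and 5). Cmpd17b, an agonist of formyl peptide receptors, was given into the peritoneum at 50 mg/kg/day for 28 days, and all libraries carry batch label 2. High blood pressure and every other inherited difference between the strains cannot be told apart in this design, and the labels give no sex.

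In the 18 libraries used, total counts ran from 21400111 to 40998650. One library, given the label BPH/2J Cmpd17b replicate 1, was left out because it had the profile of heart: Myh6, the cardiac myosin heavy chain, stood at 14200 CPM (counts scaled to the library total) against at most 28.3 in any other library, and the summed kidney proximal tubule markers stood at 12.6 CPM against 4050 to 7781. The 4 other treated BPH/2J libraries had summed heart markers of 118 to 168 CPM, against 2.81 to 9.95 in the other groups. Mitochondrial genes took 12.8% to 16.3% of counts in BPN/3J libraries and 16% to 26.6% in BPH/2J libraries. All values below are CPM scaled by TMM factors unless another scale is named, and differences are log2 fold changes from edgeR's quasi-likelihood fit.

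The sequence before the start site is shown for 3 genes: Plppr1, Plppr2 and Gm32657, a long noncoding RNA gene within the Plppr1 locus. Each is the 250 bases before the annotated start in RefSeq, build GRCm38.p6, which is the C57BL/6J reference. Bases that differ in BPH/2J or BPN/3J were not analysed here. The Plppr1 stretch is chr4:49059212-49059461 (plus strand), with each CG dinucleotide in capitals.

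Plppr1: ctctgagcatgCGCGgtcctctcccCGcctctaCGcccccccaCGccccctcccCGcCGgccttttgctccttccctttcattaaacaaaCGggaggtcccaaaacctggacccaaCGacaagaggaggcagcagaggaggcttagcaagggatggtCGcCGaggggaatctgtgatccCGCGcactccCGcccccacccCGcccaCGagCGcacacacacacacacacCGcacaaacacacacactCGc

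The Plppr2 stretch is chr9:21936760-21937009 (plus strand), with each match of the octamer ATGCAAAT, or of its reverse complement ATTTGCAT, in capitals.

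Plppr2: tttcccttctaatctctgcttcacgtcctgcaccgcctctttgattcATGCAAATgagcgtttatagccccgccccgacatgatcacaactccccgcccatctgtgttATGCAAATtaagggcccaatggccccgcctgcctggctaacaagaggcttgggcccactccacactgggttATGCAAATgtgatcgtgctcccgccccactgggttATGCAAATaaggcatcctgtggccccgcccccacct

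The Gm32657 stretch is chr4:49245598-49245847 (minus strand, read in the direction of the gene), with each CG dinucleotide in capitals.

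Gm32657: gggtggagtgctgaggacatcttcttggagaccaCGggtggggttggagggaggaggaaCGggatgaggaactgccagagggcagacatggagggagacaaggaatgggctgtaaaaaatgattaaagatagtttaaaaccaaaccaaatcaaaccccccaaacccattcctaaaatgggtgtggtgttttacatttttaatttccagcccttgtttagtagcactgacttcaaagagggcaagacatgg

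The Plppr1 promoter held 19 CG dinucleotides at a GC content of 64.4%, and 19.7% of the 32851 RefSeq promoters of the same length held as many or more. The Gm32657 promoter held 2 CG dinucleotides at a GC content of 47.2%, and 81.2% of promoters held as many or more. The median promoter held 6, so that 1 start in this locus lay above and the other below it. The Plppr2 promoter held 4 matches of the octamer, which lay between 36 and 203 bases before the start. At least 1 match was present in 1.6% of promoters and at least 4 in 0.00304%. This octamer is the consensus for POU-domain factors; it was picked after the sequences had been seen, and a match is a description of letters only. Of the other members, 5 had a promoter in the table, with 3 (Plppr4), 6 (Plpp3), 13 (Plppr5), 14 (Plppr3) and 14 (Plpp2) CG dinucleotides and no match of the octamer.

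Plppr1, the member chosen for its strain difference, is described first. In BPN/3J vehicle mice it stood at 1.82, 1.52, 1.89 and 1.90 CPM, and in BPN/3J Cmpd17b mice at 1.27, 2.05, 1.56, 2.18 and 2.31 CPM. In BPH/2J vehicle mice it stood at 22.6, 32.2, 24.8, 27.6 and 16.1 CPM, and in the 4 BPH/2J Cmpd17b mice at 30.9, 31.0, 28.1 and 30.2 CPM. Every BPH/2J library lay above every BPN/3J library, and the lowest BPH/2J library was a vehicle one. The counts behind these values were 40 to 80 in BPN/3J and 372 to 1099 in BPH/2J libraries.

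The mean level of Plppr1 was 1.78 ± 0.176 CPM (SD, n = 4) in BPN/3J and 24.7 ± 5.99 CPM (SD, n = 5) in BPH/2J vehicle mice, a ratio of 13.8 and a log2 fold change of 3.79. Between the Cmpd17b groups the means were 1.87 ± 0.441 (SD, n = 5) and 30.0 ± 1.37 CPM (SD, n = 4), a ratio of 16.04 and a log2 fold change of 4.0. These ratios carry no test, since Plppr1 was chosen for them, and both arms are shown only to give their size. The spread was uneven: the coefficient of variation was 24.3% in BPH/2J vehicle mice and 4.55% in BPH/2J Cmpd17b mice.

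**Figure D1:**
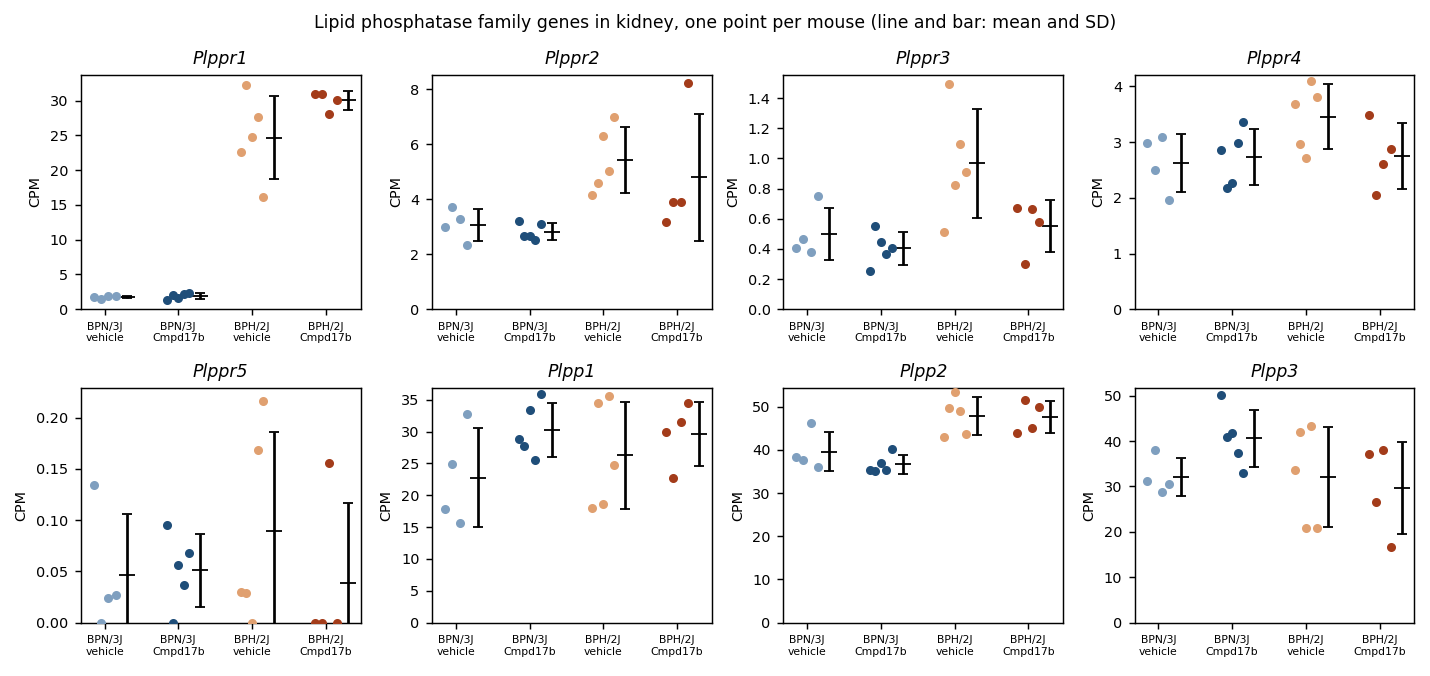
CPM of the 8 genes in each mouse, by strain and treatment, with points for mice and bars for the group mean and SD (bars of Plppr5 are clipped at 0). Plppr1 lies between 16.1 and 32.2 CPM in every BPH/2J mouse and at or below 2.31 CPM in every BPN/3J mouse, while the other panels overlap more.

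Nerve and glia markers were read beside Plppr1 because the gene is best known from neurons. The sum of 8 such markers was 10.9 to 11.8 CPM in BPN/3J vehicle mice and 12.7 to 16.7 in BPH/2J vehicle mice, and 10.3 to 13.2 (BPN/3J) and 10.03 to 19.4 CPM (BPH/2J) in the Cmpd17b groups. Of the 8, Snap25 and Gap43, which mark nerve endings, were at 0 in all BPN/3J vehicle libraries, and Snap25 and Tubb3 in all BPN/3J Cmpd17b libraries, while none was at 0 throughout either BPH/2J group. The part of nerve RNA in the Plppr1 difference was not tested. Within groups, the deviation of Plppr1 from its group mean had a correlation of 0.05 with that of the nerve and glia score, the mean log2 CPM of the 4 markers that passed the filter, over 18 mice (permutation p = 0.879, adjusted p = 0.971; Spearman rho 0.15, permutation p = 0.617). In the left-out library with the heart profile, Plppr1 stood at 19.9 CPM without TMM factors. The highest Myh6 level of any other library was 0.199% of that in the left-out library. At that share the 19.9 CPM of Plppr1 becomes 0.0397 CPM. The part of the heart transcripts in the Plppr1 values of the treated BPH/2J libraries was not tested.

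The place of Plppr1 in the family was read by strain on a per-length scale (CPM per kilobase of the longest GENCODE coding transcript). Its shift restates the strain difference for which Plppr1 was chosen and carries no test. In BPN/3J vehicle mice the order was Plpp2 (23.9), Plpp1 (14.2), Plpp3 (10.2), Plppr2 (1.17), Plppr4 (0.462), Plppr1 (0.452), Plppr3 (0.163) and Plppr5 (0.00989). In BPH/2J vehicle mice it was Plpp2 (28.9), Plpp1 (16.4), Plpp3 (10.2), Plppr1 (6.26), Plppr2 (2.07), Plppr4 (0.607), Plppr3 (0.316) and Plppr5 (0.0190). Plppr1 was the 6th of 8 in the BPN/3J mice and the 4th in the BPH/2J mice, in both arms. Neighbours in this order whose values overlapped were Plpp1 with Plpp3 and Plppr4 with Plppr1 in BPN/3J vehicle mice, and Plpp1 with Plpp3, Plpp3 with Plppr1, and Plppr4 with Plppr3 in BPH/2J vehicle mice. With Cmpd17b, Plppr1 stood at 0.475 per kilobase in BPN/3J mice, overlapping Plppr4 (0.479), and at 7.62 in BPH/2J mice, overlapping Plpp3 (9.37).

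Cmpd17b did not change Plppr1 by a detectable amount in either strain. In BPH/2J the treated mice had a mean log2 CPM of 4.91 against 4.59 in vehicle mice, a difference of 0.32 (exact permutation test, two-sided, p = 0.119; the smallest p that the 126 arrangements allow is 0.00794). Leaving out each library in turn gave differences of 0.18 to 0.43. The largest came without BPH/2J vehicle replicate 2, the highest vehicle mouse, whose removal can only raise the difference. The exact permutation p was then 0.0286, the smallest that the mice left allow, and it is given as a description only. In BPN/3J the means were 0.92 and 0.88, a difference of 0.04 (exact permutation p = 0.833). The edgeR log2 fold change was 0.28 in BPH/2J (95% interval -0.07 to 0.64, adjusted p = 1) and 0.07 in BPN/3J (95% interval -0.34 to 0.48, adjusted p = 1), and the interaction was 0.22 (95% interval -0.33 to 0.76).

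Plppr2, a catalytically inactive relative, was called in the vehicle arm (called means an adjusted p under 0.05 from edgeR over 16421 genes). It stood at 2.99, 3.72, 3.28 and 2.33 CPM in BPN/3J vehicle mice and at 4.17, 4.60, 6.31, 5.03 and 7.01 CPM in BPH/2J vehicle mice. The ranges did not overlap. The log2 fold change was 0.81 ± 0.25 (SE; adjusted p = 0.0403). Of the 6 members tested besides Plppr1, 1 was called, in a comparison where 10.8% of genes were called (5.82% higher and 4.94% lower). The same 1 of 6 had ranges that did not overlap, against 13.6% of genes (6.9% higher and 6.69% lower). The call was lost in 8 of the 18 refits that left out 1 library, where the adjusted p was 0.0505 to 0.118: BPH/2J vehicle replicates 3, 4 and 5, BPN/3J vehicle replicates 1, 3 and 4, and BPN/3J Cmpd17b replicates 2 and 3. It was also lost without the filter on low counts and with all 19 libraries.

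In the Cmpd17b arm Plppr2 stood at 3.20, 2.68, 2.65, 2.51 and 3.09 CPM in BPN/3J mice and at 3.18, 3.90, 3.89 and 8.25 CPM in the BPH/2J mice, the 8.25 belonging to replicate 5. Its log2 fold change was 0.75 ± 0.24 (SE; adjusted p = 0.0581) and did not pass; without replicate 5 it was 0.37 (adjusted p = 0.304), and without BPH/2J Cmpd17b replicate 2 it was 0.90 and called (adjusted p = 0.0256). The 3 highest Plppr2 levels, in BPH/2J vehicle replicates 3 and 5 and BPH/2J Cmpd17b replicate 5, were in the libraries with the highest mitochondrial shares (21.1%, 21.7% and 26.6%). Over the 9 BPH/2J mice the correlation of their deviations was 0.957, against -0.502 over the 9 BPN/3J mice and 0.693 over all 18 (permutation p = 0.0375, adjusted p = 0.287; Spearman rho 0.529, permutation p = 0.0614). Leaving out the 2 most extreme mice gave 0.331, so the pooled relation rests on them. Smooth muscle markers (Myh11, Acta2 and Cnn1), whose score had the largest r with Plppr2 of the measures computed, were also read beside it. Their sum was 16.7 to 27.6 CPM in BPN/3J and 31.0 to 78.1 CPM in BPH/2J vehicle mice, which did not overlap, and 19.1 to 29.0 and 24.9 to 92.9 CPM in the Cmpd17b groups, which did. Deviations of Plppr2 and of the smooth muscle score correlated at 0.809 over 18 mice (permutation p = 0.0103, adjusted p = 0.119; Spearman rho 0.794, permutation p = 0.00321, adjusted p = 0.0514), at 0.809 without the 2 most extreme mice, and at 0.832 within BPH/2J and 0.693 within BPN/3J. Neither the smooth muscle nor the mitochondrial relation passed after adjustment. The parts of the mitochondrial share and of smooth muscle RNA in the Plppr2 difference were not tested.

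Plppr3 and Plppr4, neuronal members of low level here, were not called in either arm. Plppr3 stood at 0.403, 0.469, 0.377 and 0.750 CPM in BPN/3J vehicle mice and at 0.514, 1.49, 0.821, 1.10 and 0.908 CPM in BPH/2J vehicle mice, on counts of 8 to 51 across all groups. The ranges overlapped through the highest BPN/3J and the lowest BPH/2J mouse. Its log2 fold change was 0.95 ± 0.35 (SE; adjusted p = 0.101), and leaving out BPH/2J vehicle replicate 1 gave 1.11 (adjusted p = 0.0442). Under Cmpd17b it was 0.44 (adjusted p = 0.499). Plppr4 had a mean of 2.63 ± 0.521 CPM (SD, n = 4) in BPN/3J vehicle and 3.46 ± 0.588 CPM (SD, n = 5) in BPH/2J vehicle mice, a log2 fold change of 0.39 (95% interval -0.03 to 0.82, adjusted p = 0.252), and of 0.01 (95% interval -0.42 to 0.45) in the Cmpd17b arm.

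Plppr5 was at the limit of detection. Its counts summed to 6 over the BPN/3J vehicle, 8 over the BPN/3J Cmpd17b, 13 over the BPH/2J vehicle and 4 over the BPH/2J Cmpd17b libraries, with at most 6 counts in 1 library. No difference was detectable at this depth.

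Among the enzymes, Plpp2 differed by strain in the Cmpd17b arm. It stood at 35.3, 35.1, 37.1, 35.4 and 40.3 CPM in BPN/3J Cmpd17b mice and at 44.0, 51.5, 45.2 and 50.0 CPM in BPH/2J Cmpd17b mice. The ranges did not overlap. The log2 fold change was 0.38 ± 0.10 (SE; adjusted p = 0.0143), and the call was lost without BPH/2J Cmpd17b replicate 3 (adjusted p = 0.0519), without the filter on low counts and with all 19 libraries. This was 1 of 6 members besides Plppr1 called, in a comparison where 10.4% of genes were called (5.71% higher and 4.65% lower) and 12.8% had ranges that did not overlap (6.38% higher and 6.37% lower). In the vehicle arm Plpp2 stood at 38.4, 37.6, 46.1 and 36.0 CPM in BPN/3J mice and at 42.9, 49.8, 53.4, 48.9 and 43.7 CPM in BPH/2J mice. One BPN/3J mouse, replicate 3, overlapped the BPH/2J range, and the log2 fold change was 0.27 ± 0.10 (SE; adjusted p = 0.0836), or 0.35 (adjusted p = 0.0377) without that mouse. Collecting duct markers, whose score had the largest r with Plpp2 of the measures computed, were read beside it. Their sum was 192 to 317 CPM in BPN/3J and 246 to 530 CPM in BPH/2J Cmpd17b mice. Deviations of Plpp2 and of the collecting duct score correlated at 0.626 over 18 mice (permutation p = 0.0101, adjusted p = 0.119; Spearman rho 0.670, permutation p = 0.00666, adjusted p = 0.0829), at 0.615 without the 2 most extreme mice, and at 0.553 within BPH/2J and 0.705 within BPN/3J. Plpp2 ran the other way with the proximal tubule score (r = -0.436, rho = -0.591, permutation p of rho = 0.0264, adjusted p = 0.208). The same held for the liver score (r = -0.532, rho = -0.564, permutation p of rho = 0.0385, adjusted p = 0.27). None of these relations passed after adjustment. The part of collecting duct or other cell type RNA in the Plpp2 difference was not tested.

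The strain difference averaged over both arms, a contrast chosen after the data were seen, called Plppr2 (log2 fold change 0.78 ± 0.17, SE, adjusted p = 0.00287) and Plpp2 (0.33 ± 0.07, adjusted p = 0.00188). It called 23.6% of genes (13.2% higher and 10.4% lower), more than either arm alone. The Plppr2 and Plpp2 interactions were -0.06 and 0.11 (both adjusted p = 0.99991), so that no difference between the arms was shown for these genes.

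Plpp1 and Plpp3 were not called in any comparison. Plpp1 stood at 17.8, 24.9, 15.6 and 32.8 CPM in BPN/3J vehicle mice and at 18, 34.5, 18.6, 35.5 and 24.7 CPM in BPH/2J vehicle mice (log2 fold change 0.21, 95% interval -0.27 to 0.69, adjusted p = 0.614). Plpp3 stood at 31.1, 38.1, 28.8 and 30.5 CPM in the first and at 33.5, 42.1, 20.9, 43.3 and 20.8 CPM in the second group (log2 fold change 0.00, 95% interval -0.50 to 0.51, adjusted p = 0.997). Both genes varied widely between mice of 1 group: the SD was 7.79 and 8.41 CPM for Plpp1 and 4.13 and 11 CPM for Plpp3.

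**Figure D2:**
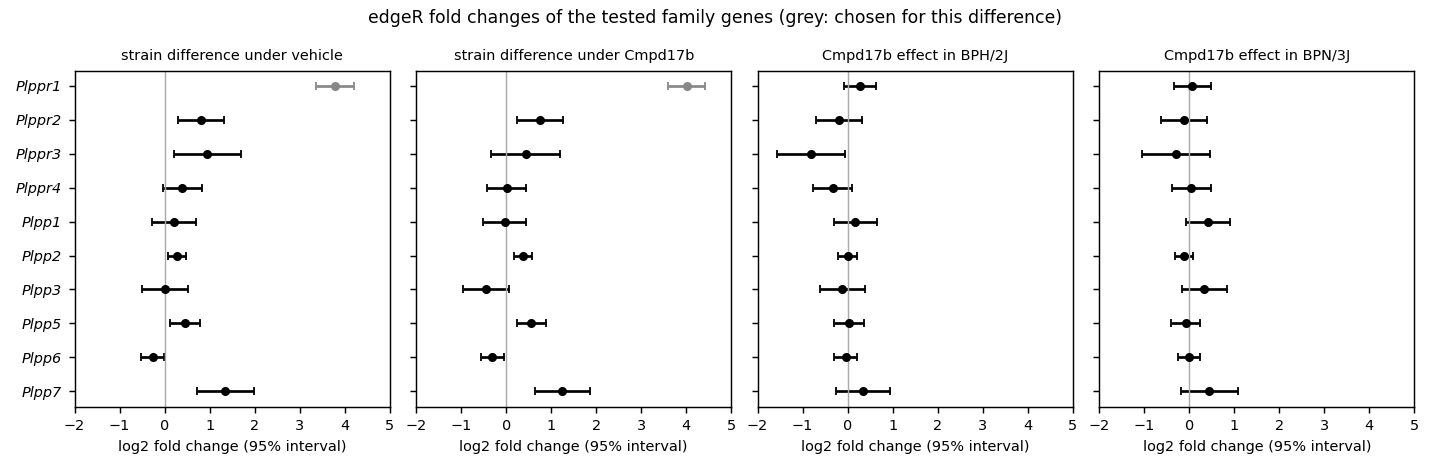
Log2 fold change of 10 genes in 4 contrasts, with 95% intervals from edgeR. Grey marks Plppr1 in the strain contrasts, which chose it, and its values there (3.79 and 4.0) and their intervals are a description without a test. In both Cmpd17b contrasts the intervals of Plppr1 include 0.

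Within groups, Plpp1 and Plpp3 were correlated with some of the marker measures, and the part of cell content in their spread was not tested. Deviations of Plpp1 from its group means correlated with those of 3 marker scores (the mean log2 CPM of a list's tested markers) over 18 mice: stroma (r = 0.844, permutation p = 0.00133, adjusted p = 0.0372; rho = 0.851, permutation p = 0.00085, adjusted p = 0.0412), endothelium (r = 0.819, permutation p = 0.00199, adjusted p = 0.0446; rho = 0.827, permutation p = 0.00166) and leukocytes (r = 0.784, permutation p = 0.00032, adjusted p = 0.0258; rho = 0.882, permutation p = 0.00031). Without the 2 most extreme mice r was 0.792, 0.773 and 0.859. Within BPH/2J it was 0.792, 0.768 and 0.780, and within BPN/3J 0.917, 0.906 and 0.902. Each of these relations was among 112 computed, and adjusted p-values cover all of them.

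Plpp3 ran the other way with intercalated cells of the collecting duct. Its deviations correlated with those of the intercalated marker score at r = -0.889 (permutation p = 0.00046, adjusted p = 0.0258; rho = -0.820, permutation p = 0.00131, adjusted p = 0.0412), and with the mitochondrial share at r = -0.852 (permutation p = 0.00113, adjusted p = 0.0372; rho = -0.781, permutation p = 0.00184). Without the 2 most extreme mice r was -0.804 and -0.741. Within BPH/2J it was -0.929 and -0.934, and within BPN/3J -0.624 and -0.414. The intercalated list includes Slc4a1, which red cells also express. In bulk RNA, fewer cells of a type and less RNA per cell cannot be told apart.

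**Figure D3:**
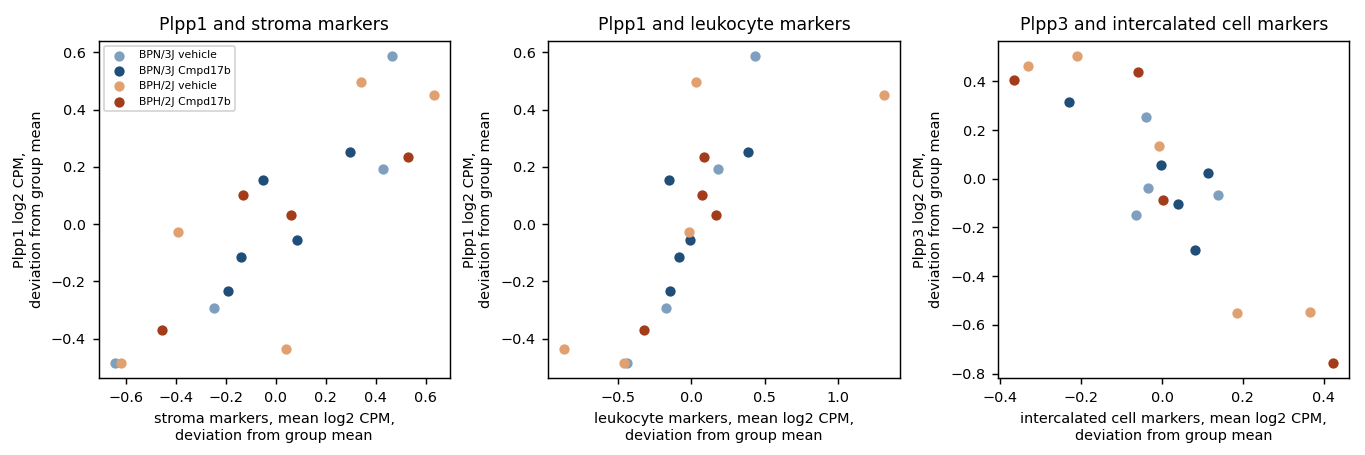
Deviations from group means in log2 CPM, 1 point per mouse over 18 mice: Plpp1 against stroma and leukocyte marker scores, and Plpp3 against the intercalated cell score. Plpp1 rises with both scores (r = 0.844 and 0.784) and Plpp3 falls as the intercalated score rises (r = -0.889).

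Cmpd17b called none of the 7 tested members in either strain, by edgeR. In BPH/2J it called 0.164% of genes, all higher, and 0 of 7 members. The treated BPH/2J libraries held summed heart markers of 118 to 168 CPM, against 3.02 to 9.95 CPM in the BPH/2J vehicle libraries. The part of heart transcripts in the BPH/2J calls was not tested. At an unadjusted p under 0.05 there, 608 of the 16421 tested genes passed, and 1 of 7 members, Plppr3. The log2 fold change of Plppr3 was -0.81 (95% interval -1.56 to -0.05, adjusted p = 1). In BPN/3J Cmpd17b called 0% of genes and 0 members, with 415 genes and 0 members at an unadjusted p under 0.05. DESeq2 called 6 genes there. Groups did not overlap in 0.932% of genes in BPH/2J (0.451% higher and 0.481% lower) and in 1.78% in BPN/3J (1.03% higher and 0.755% lower), and in 0 of 7 members in both. Plpp1 in BPN/3J had a log2 fold change of 0.41 (95% interval -0.07 to 0.89), beside stroma marker sums of 21.9 to 47.5 CPM in vehicle and 41.4 to 58.0 CPM in treated mice, whose part was not tested. The interaction called 0.0304% of genes and no member (adjusted p = 0.99991 for each).

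Plpp relatives outside the 8 were read next. Plpp7, an inactive family member known from muscle, was called in both arms: means were 0.636 ± 0.112 (SD, n = 4) and 1.62 ± 0.397 CPM (SD, n = 5) with vehicle (log2 fold change 1.35, adjusted p = 0.00603), and 0.864 ± 0.150 (SD, n = 5) and 2.07 ± 0.954 CPM (SD, n = 4) with Cmpd17b (1.25, adjusted p = 0.00775). Plpp7 stood at 31.4 CPM in the heart-like library, without TMM factors. The highest Myh6 level of any other library was 0.199% of that in the heart-like library. At that share the 31.4 CPM of Plpp7 becomes 0.0625 CPM. The part of heart transcripts in the Plpp7 difference of the Cmpd17b arm was not tested. Plpp5, which acts on diacylglycerol pyrophosphate and related lipids, was called in the Cmpd17b arm (log2 fold change 0.56, adjusted p = 0.0264) and not in the vehicle arm (0.46, adjusted p = 0.0738). The Plpp5 call was lost without any 1 of BPH/2J Cmpd17b replicates 4 and 5 or BPN/3J Cmpd17b replicates 1, 2 and 3 (adjusted p 0.0600 to 0.0830), and it appeared in the vehicle arm without BPH/2J vehicle replicate 1 (adjusted p = 0.0337) or BPH/2J Cmpd17b replicate 5 (0.0480). Plpp6, a polyisoprenyl diphosphate phosphatase, was not called (-0.27 and -0.31, adjusted p = 0.181 and 0.125), except without BPH/2J Cmpd17b replicate 5 in the vehicle arm (0.0346) or replicate 3 in the Cmpd17b arm (0.0235). In the vehicle arm 1 of 8 tested lipid phosphatases outside the members was called higher in BPH/2J than in BPN/3J and 0 lower. The median over the 8 was 0.03, against 0.04 over all tested genes, of which 5.82% were called higher. In the Cmpd17b arm 2 of 8 were called higher in BPH/2J and 0 lower. The median was 0.12 against 0.01 over all tested genes, of which 5.71% were called higher.

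The substrates' own genes differed between the strains in both directions. Of 14 tested sphingosine 1-phosphate genes 1 was called higher and 2 lower in BPH/2J than in BPN/3J in each arm (median log2 fold change 0.09 and 0.01). Over all tested genes 5.82% were higher and 4.94% lower in BPH/2J with vehicle, and 5.71% higher and 4.65% lower with Cmpd17b. Spns2, the exporter of sphingosine 1-phosphate, stood at 44.2, 46.7, 45.4 and 35.1 CPM in BPN/3J vehicle mice and at 26.3, 33.5, 16.04, 19.5 and 22.3 CPM in BPH/2J vehicle mice. The groups did not overlap, and the log2 fold change was -0.86 (adjusted p = 0.00961), or -1.19 (adjusted p = 0.000891) in the Cmpd17b arm. Acer3, an alkaline ceramidase that supplies sphingosine, was lower in BPH/2J in both arms (-0.35, adjusted p = 0.0304, and -0.37, adjusted p = 0.0235). The Acer3 call was lost in the vehicle arm without BPH/2J vehicle replicate 2 or 5 or BPN/3J vehicle replicate 1, 3 or 4 (adjusted p 0.0592 to 0.108), and in the Cmpd17b arm without replicate 5 of either strain (0.0707 and 0.0589).

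The remaining 2 sphingosine 1-phosphate calls were each made in 1 arm. S1pr1, a receptor for sphingosine 1-phosphate, was higher in BPH/2J than in BPN/3J in the vehicle arm (log2 fold change 0.81, adjusted p = 0.0213). This call was lost without BPH/2J vehicle replicate 4 or BPN/3J vehicle replicate 1, 2 or 3 (adjusted p 0.0652 to 0.0877). Sphk1, the kinase that makes sphingosine 1-phosphate, was higher in BPH/2J than in BPN/3J in the Cmpd17b arm (0.95, adjusted p = 0.0254). This call was lost without BPH/2J Cmpd17b replicate 2, 3 or 5 or BPN/3J Cmpd17b replicate 2 or 4 (0.0510 to 0.0685). Without BPH/2J vehicle replicate 5, Sphk1 was also called in the vehicle arm (0.84, adjusted p = 0.0403). The interaction of S1pr1 was -0.71 (adjusted p = 0.99991), so that its arms were not shown to differ.

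In the vehicle arm 2 of the 9 tested lysophosphatidic acid genes had an unadjusted p under 0.05, as did 3932 of all 16421 tested genes. There edgeR called 0 of the 9 (median log2 fold change 0.06), beside 10.8% of all tested genes. In the Cmpd17b arm it called 1 of the 9 (median -0.25), beside 10.4% of all tested genes. That was Lpar2, a lysophosphatidic acid receptor, with a log2 fold change of 0.78 (adjusted p = 0.0165), lost without BPH/2J Cmpd17b replicate 5 (0.59, adjusted p = 0.0768) or BPN/3J Cmpd17b replicate 3 (0.69, adjusted p = 0.0518). Its interaction was 0.68 (adjusted p = 0.99991).

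Among 23 tested genes of phosphatidate and diacylglycerol, 3 were called higher and 1 lower in BPH/2J than in BPN/3J in the vehicle arm. In the Cmpd17b arm 2 were called higher and 1 lower. That is 4 and 3 called, beside 10.8% and 10.4% of all tested genes. Pld1, a phospholipase that makes phosphatidate, stood at 11.8, 11.5, 10.04 and 11.8 CPM in BPN/3J vehicle mice and at 4.26, 5.80, 4.89, 3.80 and 5.02 CPM in BPH/2J vehicle mice. The groups did not overlap, and the log2 fold change was -1.25 (adjusted p = 2.08e-05), or -1.21 (adjusted p = 3.3e-05) under Cmpd17b. Pld2, its paralog, was higher in BPH/2J in the vehicle arm (0.58, adjusted p = 0.0135), a call lost without BPN/3J vehicle replicate 3 (0.55, adjusted p = 0.0507). Mogat1 and Mogat2, acyltransferases that make diacylglycerol from monoacylglycerol, were higher in BPH/2J in both arms. The differences were 0.87 and 0.83 for Mogat1 (adjusted p = 0.00012 and 0.000132) and 1.93 and 1.89 for Mogat2 (adjusted p = 1.52e-05 and 9.49e-06). Mogat2 stood at 2.28 to 3.90 CPM in BPN/3J vehicle and 9.17 to 16.4 CPM in BPH/2J vehicle mice. The median over these 23 genes was -0.02 and -0.01.

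**Figure D4:**
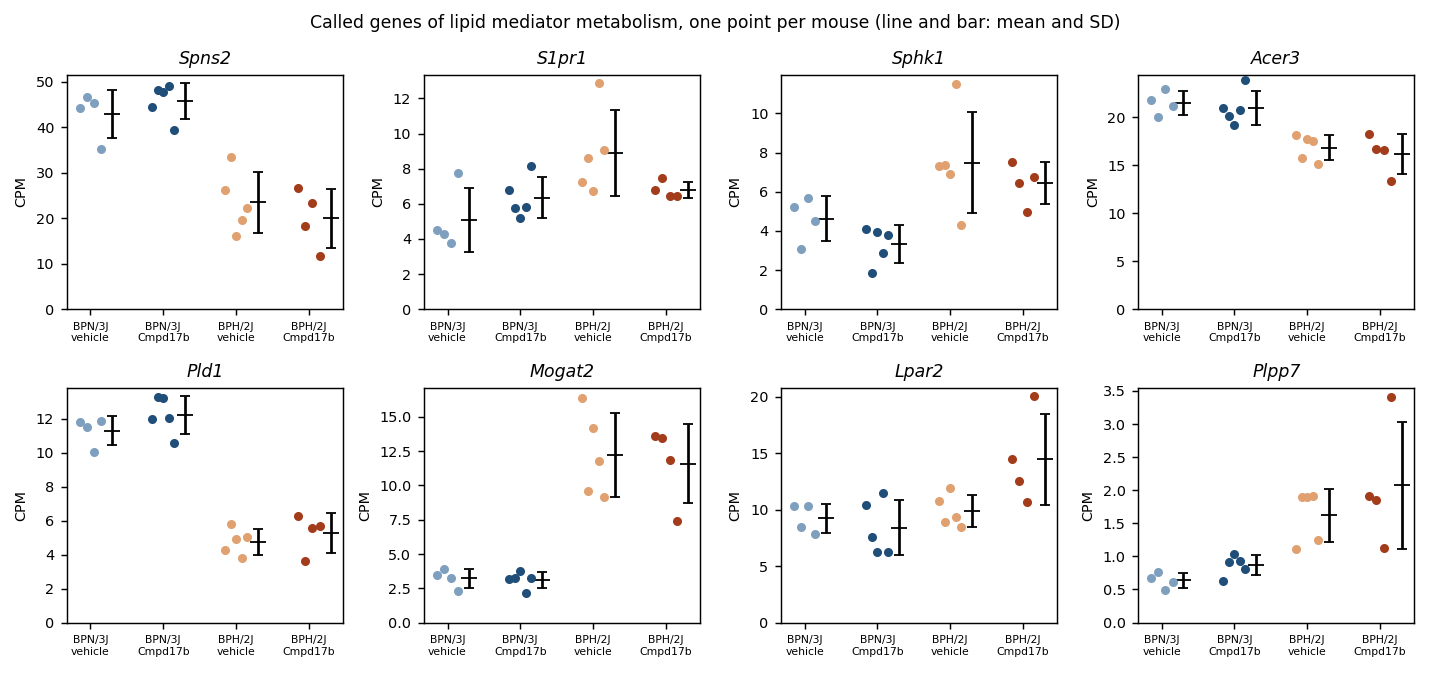
CPM per mouse of Spns2, S1pr1, Sphk1, Acer3, Pld1, Mogat2, Lpar2 and Plpp7 by strain and treatment, with group means and SD. Spns2 and Pld1 lie lower and Mogat2 and Plpp7 lie higher in BPH/2J in both arms (Pld1 means 11.3 and 4.75 CPM with vehicle).

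Around Plppr1, 2 of its 10 nearest tested genes (5 on each side in the RefSeq order) were called in each arm, both higher, beside 10.8% (vehicle) and 10.4% (Cmpd17b) of all tested genes. Gm32657, the noncoding gene shown above, stood at 0.672, 0.234, 1.11 and 1.04 CPM in BPN/3J vehicle mice and at 38.1, 43.8, 77.1, 48.6 and 64.3 CPM in BPH/2J vehicle mice. Every BPH/2J mouse lay far above every BPN/3J mouse, and the means of 0.765 ± 0.402 (SD, n = 4) and 54.4 ± 15.99 CPM (SD, n = 5) gave a ratio of 71.1 and a log2 fold change of 6.12 (adjusted p = 1.14e-07). In the Cmpd17b arm the means were 0.381 ± 0.232 (SD, n = 5) and 71.0 ± 45.5 CPM (SD, n = 4), a log2 fold change of 7.48 (adjusted p = 7.38e-09). BPH/2J Cmpd17b replicate 5 stood at 139 CPM while the other 3 stood at 45.7, 52.6 and 46.6, and without it the log2 fold change was 6.92. The 3 highest Gm32657 levels were in BPH/2J vehicle replicates 3 and 5 and BPH/2J Cmpd17b replicate 5. These libraries had the lowest TMM factors of those used (0.8515, 0.8954 and 0.811) and the highest mitochondrial shares. They also held the highest Plppr2 and the lowest Plpp3 levels. The part of this in the Gm32657 values was not tested. Gm32657 was singled out by the neighbour rule, with the earlier results of these data known.

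The 2 genes lie on opposite strands. In the GRCm38 annotation Gm32657 lies within intron 2 of the 8-exon Plppr1 transcript and shares 0 exonic bases with it. Whether counting used strand, and with which annotation, is not given in the sources used here. Without strand, reads from the Plppr1 intron that fall in Gm32657 cannot be told apart from Gm32657 reads, so the Gm32657 values are uncertain to that extent. Deviations of the 2 genes within groups were weakly correlated over 18 mice (r = 0.197) and over the 9 BPH/2J mice (r = -0.184), a description without a test. In the heart-like library Plppr1 stood at 19.9 CPM and Gm32657 at 18.8 CPM on the unscaled CPM scale.

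Msantd3, the other neighbour called, was higher in BPH/2J by 0.51 (adjusted p = 0.0447) with vehicle and by 0.93 (adjusted p = 0.000587) with Cmpd17b. The vehicle call was kept in 3 of 18 refits that left out 1 library (adjusted p 0.0505 to 0.160 in the other 15); the refits that kept it left out BPH/2J vehicle replicate 1, BPH/2J Cmpd17b replicate 5 or BPN/3J vehicle replicate 4. Of the 10 neighbours of Plppr2, 0 were called with vehicle and 1, Tmem205, with Cmpd17b (log2 fold change 1.23, adjusted p = 0.0433), a call lost in 9 of 18 such refits; without BPH/2J Cmpd17b replicate 5 the value was 0.71 (adjusted p = 0.254). In the vehicle arm Tmem205 was called without BPH/2J Cmpd17b replicate 5 (1.07, adjusted p = 0.0337) or BPH/2J vehicle replicate 1 (1.23, adjusted p = 0.0418). Its 3 highest levels, 298, 229 and 361 CPM, were in BPH/2J vehicle replicates 3 and 5 and BPH/2J Cmpd17b replicate 5. Of the 10 neighbours of Plpp2, 0 were called in either arm by edgeR.

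**Figure D5:**
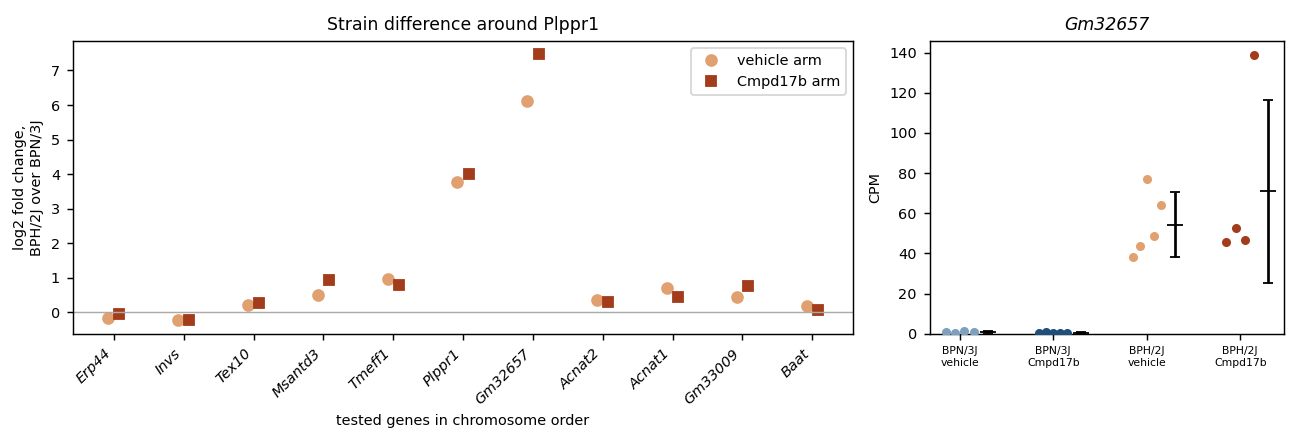
Log2 fold change of the 10 nearest tested neighbours of Plppr1 in each arm, in gene order, and Gm32657 CPM per mouse. Gm32657 (6.12 and 7.48) stands apart from its neighbours, and Msantd3 is the only other one called.

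The genes whose deviations followed Plppr1 most closely over 18 mice, among 11598 ranked, were Fam118a (r = 0.735), Rnf138 (0.719), Tifa (0.718), Leprot (0.714) and Trip10 (0.709). Over the 9 BPH/2J mice alone, which are among the 18 that picked these genes, the values were 0.860, 0.628, 0.737, 0.758 and 0.770. Their ranks there were 19, 337, 108, 80 and 67 of 11598. These are descriptions of shared variation among the same libraries. Among the members, correlations of Plppr1 deviations with the other 6 ran from -0.327 (Plppr2) to 0.412 (Plpp2). Of the cell type measures, the nearest to Plppr1 was the liver marker score (r = -0.670, permutation p = 0.0127, adjusted p = 0.119; rho = -0.701, permutation p = 0.00831), which did not pass after adjustment.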

How the data were processed

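Kidney RNA was sequenced in 19 libraries, 1 per mouse, of which 18 were used. Per the submitters' processing notes, the tools were Trim Galore 0.6.7 for trimming and STAR 2.7.9a for alignment, with the build mm39 (GRCm39). The values deposited by the authors are estimated counts, also called expected counts, and were rounded to whole numbers for testing. Which tool and annotation made them, and whether strand was used, is not given in the sources used here. Of 40413 genes, 29589 had a count and 16421 passed filterByExpr (minimum count 10, minimum total 15). edgeR 4.0.16 under R 4.3.3 (quasi-likelihood F-test, robust, TMM) fitted 4 groups with no covariate, with Benjamini-Hochberg adjustment at 0.05. The edgeR p-values judge differences between groups against the spread between mice. Single values used exact permutation tests, and correlations used 100000 permutations within groups. Gene lengths and promoters came from GENCODE and RefSeq GRCm38; 7 of 8 members had a promoter. Intervals are at 95%. Scripts were tested on simulated data.

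The members, lists and tests were chosen with earlier results of these data known. Named were the 8 members, up to 6 called genes per list, the 5 genes most like Plppr1, and 5 neighbours per side. Alternatives were DESeq2 1.42.0, limma-voom 3.58.1, DESeq2 size factors in edgeR, other filters, only the compared groups, all 19 libraries and leaving out each library.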

Additional observations from a re-analysis of the deposited data

Results flagged for a closer look

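Plppr2 stood at 8.25 CPM in BPH/2J Cmpd17b replicate 5, far from the other 3 treated BPH/2J libraries (3.18 to 3.90). That library also had the highest mitochondrial share (26.6%) of the 18. Plppr5 stood at 0.156 CPM in BPH/2J Cmpd17b replicate 4, from 4 counts, while the other 3 libraries of the group were at 0. These were 2 of 32 combinations of a group and a gene examined for a sample that stands apart, and chance gives about 5%.

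The library left out of every comparison, labelled BPH/2J Cmpd17b replicate 1, held Plpp1 at 52.9 CPM and Plpp3 at 75.0 CPM on the unscaled scale, above the highest vehicle libraries (37.6 and 45.8).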

How the results depend on the processing

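Of 1772 values of reported genes under alternatives, 1609 kept their direction and side of the threshold, 86 lost the threshold, 24 gained it, 3 moved and 50, in 13 results, changed sign; 0 of these 50 were called before or after. With all 19 libraries the calls were 566 for the vehicle strain difference (1766 in the fit reported), 0 for Cmpd17b in BPH/2J (27) and 0 for the interaction (5), and members called besides Plppr1 fell from 1 to 0 with vehicle. With DESeq2 the calls were 41 in BPH/2J, 6 in BPN/3J and 15 for the interaction, and 2 members were called in the Cmpd17b strain comparison. Without the filter 0 members besides Plppr1 were called in either strain comparison. Averaging both arms gave 3876 genes and 2 members. Leaving out 1 library gave 1226 to 2490 (vehicle strain), 1290 to 1749 (Cmpd17b strain), 21 to 30 (BPH/2J), 0 to 0 (BPN/3J) and 1 to 6 (interaction) genes, and 0 to 2 members in each strain comparison. The Plppr1 difference under Cmpd17b ran from 0.18 to 0.43 in BPH/2J and from -0.039 to 0.17 in BPN/3J. Signs changed in these log2 fold changes. With all 19 libraries, the Cmpd17b strain difference was -0.28 (Plppr4), 0.31 (Plpp1) and 0.092 (Plpp3), the BPH/2J effect of Plpp3 was 0.43, and the interaction was 0.10 (Plpp1), -0.19 (Plpp2), 0.092 (Plpp3) and 0.54 (S1pr1). The vehicle strain difference of Plpp3 was -0.012 with DESeq2, -0.051 with limma-voom, -0.011 with DESeq2 size factors, -0.00062 without the filter, -0.0087 with only the compared groups and -0.23 averaged over both arms. The BPH/2J effect of Plpp2 was 0.0017 with DESeq2, 0.0025 with its size factors and 0.0029 with the filter of 1 CPM. The Cmpd17b strain difference was -0.0096 for Plppr4 without the filter and 0.088 for Plpp1 averaged over both arms. Leaving out 1 library gave a vehicle strain difference of -0.13 to 0.12 for Plpp3, a Cmpd17b strain difference of -0.13 to 0.13 for Plppr4 and -0.11 to 0.075 for Plpp1, a BPH/2J effect of -0.046 to 0.041 for Plpp2 and -0.25 to 0.077 for Plpp3, a BPN/3J effect of -0.019 to 0.18 for Plppr1 and -0.068 to 0.14 for Plppr4, and an interaction of -0.44 to 0.091 for Plppr2. The cause was not tested. No paired analysis was possible because the labels give no shared replicate numbers. Depth limits Plppr5 and Plppr3 most.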
